A study of Mus musculus with 23 samples.

Results

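The 50 genes described here encode the machinery of the G2 phase and of mitosis: the cyclins, kinases and phosphatases of mitotic entry, the chromosomal passenger complex, the proteins that hold and release sister chromatids, the spindle assembly checkpoint, the outer kinetochore, the anaphase-promoting complex or cyclosome (APC/C), spindle motors and the cytokinesis proteins. They were listed by name, and 49 of the 50 were measured, out of 18194 genes on the arrays. *Ccnb1*, a mitotic cyclin, had no probe set annotated to it alone and was not analysed here. All 49 passed the filter on low values, and each was read from its brightest probe set by the mean of the 23 arrays.

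The study induced medulloblastoma, a cerebellar tumour of childhood, in mice by delivering Cas9 and a guide RNA against *Ptch1*, the receptor that holds back Sonic hedgehog (SHH) signalling, and set its array profiles beside other mouse models. This series held 3 CRISPR-Ptch1 tumours, of which 2 came from *in utero* electroporation of wild-type embryos (EP) and 1 from transfection of newborn *Trp53*-/- mice (TF). The study describes more profiled tumours of each route than the series holds. The other tumours were 5 MERP (*Atoh1-CreERT2*; *Ptch1* fl/fl, deleted after birth in *Atoh1*-expressing cells), 4 germline *Ptch1*+/- and 4 sporadic GTML tumours, in which the *Glt1* promoter drives a *MycN* transgene. Normal tissue was represented by 3 GNP samples (precursors of granule neurons, taken at postnatal days 4 to 7) and by 4 adult cerebella. All 23 samples carry the CD1 strain in their labels, whereas in the study's methods transfection was done in C57BL/6N mice and electroporation in CD1 embryos, so strain, *Trp53* genotype and delivery cannot be told apart between the TF and EP tumours. The study gives the timing of tumours by group of mice, but no age is given for the tumours or the adult tissue on these arrays. The labels do not say which samples came from separate animals, and the study lists several mice for the CRISPR-Ptch1 profiles without matching them to arrays, so the p-values cover the spread between samples alone, which may be technical.

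Granule neuron precursors divide in the external layer of the postnatal cerebellum in response to SHH and then leave the cell cycle to become granule neurons, while the adult cerebellum holds almost no dividing cells. Genes of G2 and mitosis are switched on together late in the cell cycle, largely through promoters that bind the MuvB complex with B-MYB and FOXM1 and, outside the cycle, the repressive DREAM complex. Their transcripts are therefore widely read as a measure of proliferation in brain tumours.

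Array medians over all probe sets ran from 5.999 to 6.17 on the log2 scale of the deposited values. These values were quantile-normalised (RMA), which draws such medians together, so they do not show that the arrays were alike in signal. Over the 1 probe set kept for each gene, array medians ran from 6.94 to 7.60. Neither targeted gene checks the labels at this probe set: that of *Ptch1* read 12.75 to 13.24 in CRISPR-Ptch1 and MERP tumours and 11.50 to 12.26 in *Ptch1*+/-, and that of *Mycn* read 7.15 to 8.39 in GTML, below the 11.67 to 12.57 of the other tumours and the GNPs. Markers of granule neuron precursors averaged 10.64 to 11.20 in the 3 *Ptch1* models and the GNPs but 6.24 to 7.09 in GTML, close to the 6.70 to 7.02 of adult cerebellum. Markers of mature granule neurons averaged 9.43 and 10.80 in EP 1 and EP 2 and 8.17 in TF, against 6.83 to 7.72 in the other tumours. Purkinje cell markers averaged 9.60 and 11.32 in the EP tumours and 8.70 in TF, against 5.33 to 7.57 in the other tumours, 7.89 to 8.08 in GNPs and 13.91 to 14.03 in adult cerebellum. GNPs stood apart by endothelial markers (10.18 to 10.83 against 6.52 to 8.65 on all other arrays) and, from the tumours, by erythroid markers (6.18 to 6.89 against 4.23 to 5.31), where they overlapped with adult cerebellum (5.35 to 6.51). GTML replicate 2 stood apart within its group, with astrocyte markers at 6.22 against 9.41 to 9.67 in the other 3 arrays. The gap between 3' and 5' control probe sets, a sign of RNA integrity, was 0.19 to 0.23 in CRISPR-Ptch1, 0.31 to 0.54 in GNPs and adult cerebellum, 0.40 to 1.71 in MERP, 0.99 to 1.53 in *Ptch1*+/- and 1.10 to 1.28 in GTML. The part these differences play in the member values was not tested.

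Almost the whole mitotic programme was high in every tumour model and in GNPs, and low in adult cerebellum. The mean over the 49 members was 10.26 to 10.59 in CRISPR-Ptch1 tumours, 10.59 to 10.68 in MERP, 10.03 to 10.25 in *Ptch1*+/-, 10.01 to 10.54 in GTML, 10.55 to 10.60 in GNPs and 5.56 to 5.98 in adult cerebellum. No tumour or GNP array came near an adult one on this mean. Because the samples are bulk tissue, fewer dividing cells and less mitotic RNA per cell cannot be told apart.

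**Figure D1:**
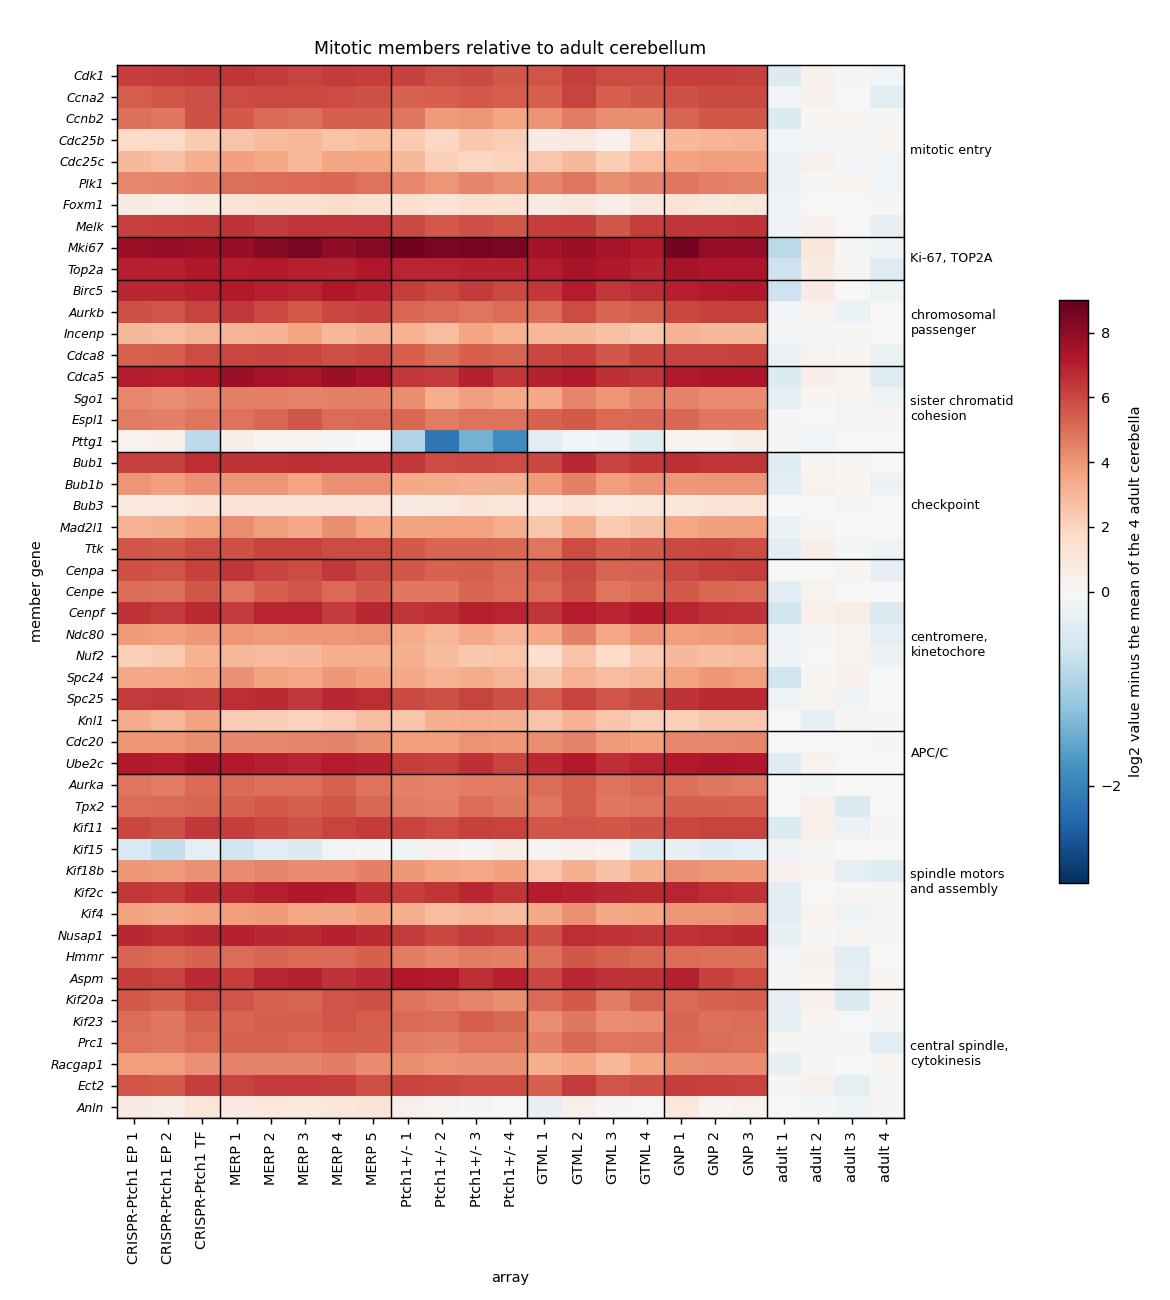
Log2 value of each of the 49 members (rows, grouped by role) on each of the 23 arrays (columns) minus the mean of the 4 adult cerebella, on a colour scale that is stretched below 0. Nearly all tumour and GNP cells are red, by a log2 difference of 5.06 to 5.30 at the median in all groups but *Ptch1*+/- (4.71), and the pale rows are *Pttg1*, *Bub3*, *Kif15*, *Anln*, *Foxm1* and *Cdc25b*.

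Against adult cerebellum, 47 of 49 members were higher and 1 lower in CRISPR-Ptch1 tumours at an adjusted p under 0.05 (limma), where 26.4% of all genes were called higher and 21.1% lower, 47.5% in either direction. The corresponding members higher were 47 in MERP (all genes 30.8%), 46 in *Ptch1*+/- (22.4%), 46 in GTML (27.3%) and 47 in GNPs (29.1%). No member was lower in MERP, GTML or GNPs by limma, nor at an unadjusted p under 0.05 (0 in each, with 26.1%, 29.4% and 23.2% of all genes lower), where 24.9%, 27.9% and 21.0% of all genes were called lower, and 1 was lower in *Ptch1*+/- tumours, where 30.8% of all genes were. In either direction, 55.7% of all genes were called in MERP, 53.2% in *Ptch1*+/-, 55.3% in GTML and 50.1% in GNPs. The median member log2 fold change was 5.12 in CRISPR-Ptch1, 5.30 in MERP, 4.71 in *Ptch1*+/-, 5.12 in GTML and 5.06 in GNPs, while the median over all genes lay between -0.03 and 0.08. These 5 comparisons share the 4 adult arrays.

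In all 5 comparisons 46 members were called higher, and 30 were at least 16-fold higher in each. Every member called higher had all its arrays above all adult arrays, as had between 89.8% (MERP) and 99.4% (GNPs) of all genes called higher. *Mki67* had the highest fold change of the 49 in all 5 comparisons, from 7.48 (GTML) to 8.54 (*Ptch1*+/-). *Top2a* was among the 3 highest in each, with *Ube2c* in CRISPR-Ptch1 (7.22), *Cdca5* in MERP (7.51) and GNPs (7.23), *Aspm* in *Ptch1*+/- (6.98) and *Cenpf* in GTML (6.86). The lowest of those called were *Foxm1*, *Anln*, *Bub3* and, in GTML, *Cdc25b* (0.88). The *Foxm1* probe set used rose by 0.74 to 1.40. Its dimmer ones differed from adult cerebellum by 1.48 to 2.97, 1.07 to 1.84 and -0.02 to 0.27. In adult cerebellum 10 members had a mean at or below 4.61, the highest lower quartile of any array, the dim end of the probe sets: *Melk*, *Birc5*, *Aurkb*, *Cdca5*, *Ttk*, *Cenpf*, *Kif11*, *Kif2c*, *Aspm* and *Kif20a*.

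The members that broke the pattern were few. *Kif15*, a spindle motor that backs up KIF11, was measured by a dim probe set (5.25 to 6.62 over the 23 arrays) and was lower in CRISPR-Ptch1 tumours (-0.49, SE 0.19, adjusted p = 0.0371) and not called in the other 4 comparisons. *Pttg1*, which encodes securin, the inhibitor of separase, was lower in *Ptch1*+/- tumours (-1.58, SE 0.23, adjusted p = 5.19e-06) and not called in the other 4 comparisons. That held at the probe set used. The dimmer *Pttg1* probe sets read above adult cerebellum in MERP (1.25 and 1.40) and GNPs (1.54 and 0.90). They differed from it by 0.35 and 0.25 in CRISPR-Ptch1, 0.17 and -0.07 in GTML and -2.67 and -0.15 in *Ptch1*+/-. *Anln*, a cytokinesis scaffold, was not called in *Ptch1*+/- (0.23) or GTML (0.09).

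Promoter sequence was available from RefSeq (GRCm38.p6) for 42 of the 50 members, *Ccnb1* included. The window ran from 250 bases before to 50 bases after each gene's start, and both strands were searched for the cell cycle genes homology region (CHR, TTTGAA), through which MuvB complexes bind, for the CCAAT box of NF-Y (CCAAT) and for E2F sites (TTTCCCGC or TTTGGCGC), allowing matches to overlap. A CHR was found in 31 members (73.8%), against 20.2% of 27025 genes, and a CCAAT box in 30 (71.4%), against 41.1%. Both were found in 25 (59.5%), against 7.97%. E2F sites were found in 1 member (2.38%, *Kif15*) against 1.8% of all genes. The 31 other mitotic genes with a promoter held a CHR in 54.8% and the 22 DNA replication genes in 18.2%, whereas E2F sites were in 40.9% of the replication genes and CCAAT boxes in 68.2%. Of the other lists, 13 condensin and cohesin genes held a CHR in 46.2% and an E2F site in 46.2%, 16 inner centromere genes a CHR in 31.2% and a CCAAT box in 75.0%, 12 DREAM, MuvB and NF-Y genes a CHR in 33.3% and an E2F site in 8.33%, and 14 APC/C genes a CHR in 14.3% and no E2F site. A match in these letters is a description and not a bound site.

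**Figure D2:**
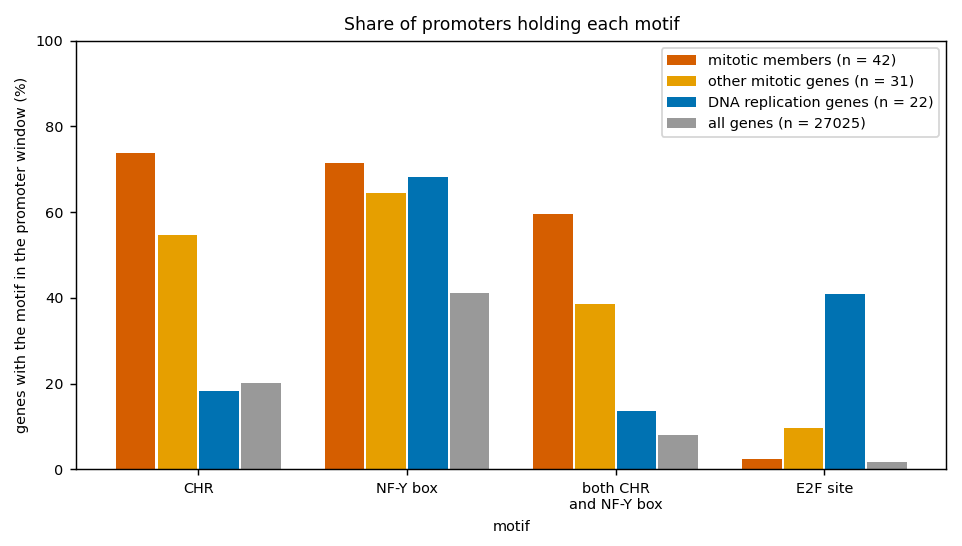
Share of genes whose promoter window (250 bases before to 50 after the start) holds each motif, for 42 mitotic members, 31 other mitotic genes, 22 DNA replication genes and all 27025 genes. CHR and NF-Y box together mark 59.5% of members against 7.97% of all genes, while the E2F site marks 40.9% of DNA replication genes and 2.38% of members.

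Stretches of 150 bases upstream of the gene start are shown for 6 members with both motifs, chosen across the roles, and for *Pttg1*, whose window held neither and whose level in adult cerebellum was high. They run 5' to 3' on the strand of the gene, and capitals mark a CHR (TTTGAA, or TTCAAA on the other strand) or a CCAAT box (CCAAT, or ATTGG on the other strand).
Cdk1: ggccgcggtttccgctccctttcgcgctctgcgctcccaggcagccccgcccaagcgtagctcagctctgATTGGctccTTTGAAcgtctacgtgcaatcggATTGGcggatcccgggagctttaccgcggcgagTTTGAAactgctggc
Cdc20: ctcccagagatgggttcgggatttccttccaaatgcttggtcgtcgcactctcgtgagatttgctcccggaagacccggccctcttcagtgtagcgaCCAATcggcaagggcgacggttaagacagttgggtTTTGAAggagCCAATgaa
Ube2c: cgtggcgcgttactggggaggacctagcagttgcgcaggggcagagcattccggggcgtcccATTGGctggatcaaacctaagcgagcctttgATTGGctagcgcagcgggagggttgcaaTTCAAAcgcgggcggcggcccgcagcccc
Top2a: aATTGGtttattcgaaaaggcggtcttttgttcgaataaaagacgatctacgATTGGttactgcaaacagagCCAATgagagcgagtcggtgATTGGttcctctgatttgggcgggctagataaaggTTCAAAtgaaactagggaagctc
Kif11: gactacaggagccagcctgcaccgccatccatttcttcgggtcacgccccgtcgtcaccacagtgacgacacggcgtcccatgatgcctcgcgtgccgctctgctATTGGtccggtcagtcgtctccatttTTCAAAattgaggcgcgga
Espl1: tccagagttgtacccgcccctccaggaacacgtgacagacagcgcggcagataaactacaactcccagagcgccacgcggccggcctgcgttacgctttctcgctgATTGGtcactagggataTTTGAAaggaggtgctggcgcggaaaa
Pttg1: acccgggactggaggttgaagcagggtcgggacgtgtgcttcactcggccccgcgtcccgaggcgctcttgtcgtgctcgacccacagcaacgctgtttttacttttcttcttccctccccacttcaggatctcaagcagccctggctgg
The stretches lie at chr10:69352913-69353062 (-) for *Cdk1*, chr4:118437344-118437493 (-) for *Cdc20*, chr2:164769779-164769928 (+) for *Ube2c*, chr11:99024190-99024339 (-) for *Top2a*, chr19:37376232-37376381 (+) for *Kif11*, chr15:102296143-102296292 (+) for *Espl1* and chr11:43425982-43426131 (-) for *Pttg1*, each directly before the annotated gene start.

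Among the 41 members with both a promoter and an array value, the median log2 fold change against adult cerebellum in CRISPR-Ptch1 tumours was 5.15 for the 31 with a CHR and 4.75 for the 10 without. The corresponding medians were 5.30 and 4.92 in MERP, 4.90 and 4.31 in *Ptch1*+/-, 5.27 and 4.62 in GTML and 5.06 and 4.80 in GNPs. The 2 sets overlapped throughout, and no test was made. The fold changes ran from -0.49 to 7.77 with a CHR and from -0.01 to 6.85 without in CRISPR-Ptch1 tumours, *Kif15* being the lowest with a CHR and *Pttg1* the lowest without.

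The lists of other mitotic genes gave their own range. Of 40 further spindle, centrosome and G2/M genes, 35 to 37 were higher than in adult cerebellum in each of the 5 comparisons. The highest by mean were *Cep55*, a midbody protein, at 6.50, and *Depdc1a* at 5.86, while *Zwint*, a kinetochore protein also made by neurons, was lower in all 5 (mean -1.64), and *Cit* (-0.38 and -0.44) and *Ckap5* (-0.44 and -1.03) were lower in MERP and *Ptch1*+/- respectively. All 15 measured inner centromere and CENP-A loading genes were higher in all 5, from *Cenpi* (mean 4.31) and *Cenph* (4.27) to *Cenpc1* (0.71) and *Cenpo* (1.45). Condensin and cohesin genes were higher in 13 to 16 of 16, led by the condensin subunits *Ncapg* (6.12) and *Ncaph* (4.47), with *Ncaph2* (0.47) and *Wapl* (0.55) the lowest of those called in all 5. APC/C genes were higher in 10 to 15 of 15, and 3 were lower in *Ptch1*+/-, *Anapc11* (-0.68), *Anapc13* (-0.28) and *Anapc7* (-0.27). *Fbxo5*, the APC/C inhibitor EMI1, rose most (3.30), ahead of *Ube2s* (1.46), with *Anapc4* (0.38) and *Anapc13* (0.39) the lowest means of those called in all 5. DREAM, MuvB and NF-Y genes were higher in 10 to 12 of 16 and lower in 0 to 2. Those called in all 5 ran from *Rbl1* (2.63) and *Mybl2* (2.31) to *Mybl1* (1.13) and *Rbbp4* (0.80). Called lower were *E2f4* in CRISPR-Ptch1 (-0.26) and GNPs (-0.27), *Lin37* in *Ptch1*+/- (-0.71) and GTML (-0.27), *Nfyc* in GTML (-0.31) and *Rbl2* in *Ptch1*+/- (-0.52).

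Among the 5 dividing groups the members differed much less. The range of the 5 group means had a median of 0.75 over the 49 members. MERP had the highest mean of the 5 groups for 24 members, GNPs for 13, GTML for 5, CRISPR-Ptch1 for 4 and *Ptch1*+/- for 3. The lowest mean fell in *Ptch1*+/- for 29 members and in GTML for 13. The same counts over all genes were not made. The median over all genes was also lowest in *Ptch1*+/- and GTML, with group means of 7.04 and 7.15 against 7.32 to 7.58. The widest ranges belonged to *Cdc25b* (2.17), *Pttg1* (1.90), *Ccnb2* (1.47), *Cdc25c* (1.45) and *Kif18b* (1.45).

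**Figure D3:**
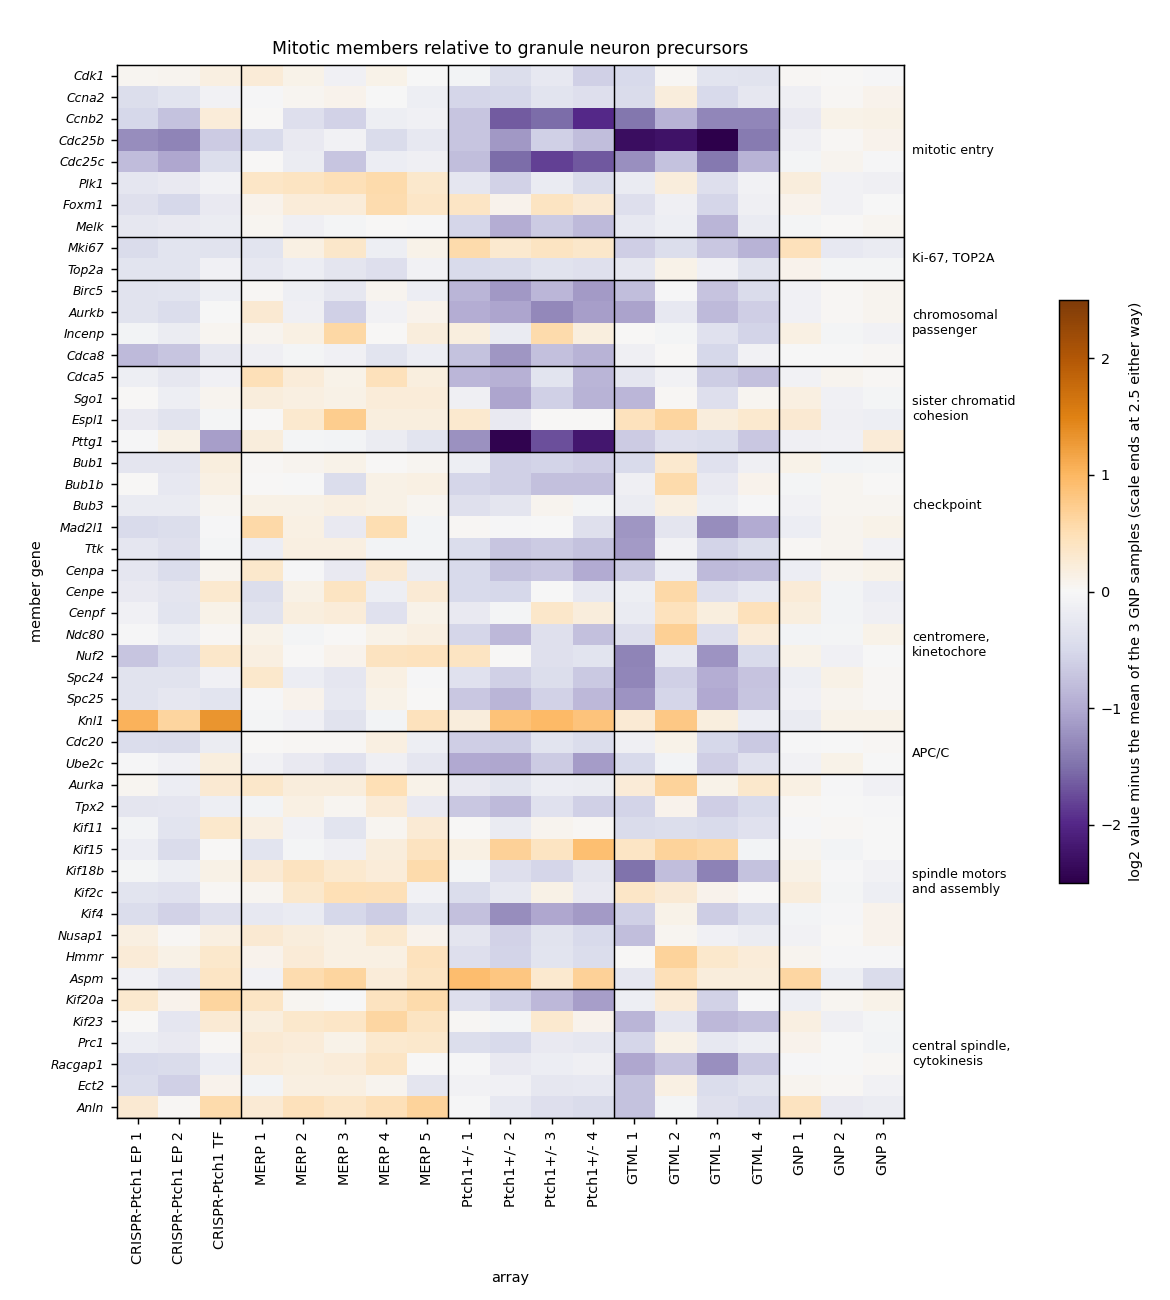
Log2 value of each member on the 19 tumour and GNP arrays minus the mean of the 3 GNP samples, with rows grouped by role. Purple runs are seen for *Ccnb2*, *Cdc25c*, *Aurkb*, *Birc5* and *Pttg1* in *Ptch1*+/- and for *Cdc25b*, *Kif18b* and *Racgap1* in GTML, and the *Knl1* row is orange in CRISPR-Ptch1 and most *Ptch1*+/- tumours. The colour scale ends at 2.5 either way.

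The direction of these smaller differences depended on how arrays were scaled. The median over the 18194 genes (1 probe set a gene) was 6.94 to 7.22 in *Ptch1*+/- and 6.99 to 7.36 in GTML, against 7.22 to 7.39 in MERP and 7.46 to 7.60 in CRISPR-Ptch1 and GNPs, although the medians over all probe sets were near equal. Centring each array on its gene median therefore moved the median log2 fold change of all genes by as much as 0.54. In *Ptch1*+/- against GNPs that median was -0.10 on the deposited values, with 9.40% of all genes called higher and 29.9% lower. After centring, 51.7% were called higher and 12.5% lower, so this scaling shifted genes in general as well as the members. Each count below is given on the deposited values and then with arrays so centred. How many members lay above the median fold change of all genes does not depend on such centring and is given as well.

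In CRISPR-Ptch1 against GNPs, 1 member was called higher and 3 lower (all genes 5.79% and 7.95%, or 13.7% in either direction), and 1 higher and 2 lower with arrays centred on their gene median (all genes 7.08% and 6.69%), with a median member log2 fold change of -0.21 and -0.14 respectively. Of the 49 members, 9 lay above the all-gene median. *Knl1*, a scaffold of the outer kinetochore, was the member called higher (0.9998, SE 0.24, adjusted p = 0.00566), and *Cdc25b* (-1.09), *Cdc25c* (-0.75), phosphatases that activate CDK1, and *Cdca8* (-0.60), the passenger protein borealin, were called lower. *Cdca8* was not called with arrays centred on their gene median, and neither *Cdca8* nor *Knl1* was called under either other probe set rule. Without EP 1, EP 2 or GNP replicate 3, 2 members were called (all genes from 9.73% to 11.0%). Few calls do not show that the other members were equal.

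In MERP against GNPs, 1 member was called higher and 0 lower (all genes 7.12% and 12.1%, or 19.2% in either direction), and 15 higher and 0 lower with arrays centred on their gene median (all genes 34.1% and 9.09%), with a median member log2 fold change of 0.04 and 0.30 respectively. *Plk1*, the polo kinase of mitotic entry, was the member called on the deposited values (0.43, SE 0.13, adjusted p = 0.0186). At an unadjusted p under 0.05 5 members were higher and 1 lower (all genes 14.5% and 16.5%). No member was called without GNP replicate 2 or 3 (all genes 13.9% and 14.1%), and 2 were without GNP replicate 1 (2733 of the 18194 genes) or GTML replicate 1 or 2 (19.8% and 20.6%). Of the 49, 23 lay above the all-gene median, and the member fold changes ran from -0.38 to 0.44.

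In *Ptch1*+/- against GNPs, 3 members were called higher and 27 lower (all genes 9.40% and 29.9%, or 39.3% in either direction), and 12 higher and 6 lower with arrays centred on their gene median (all genes 51.7% and 12.5%), with a median member log2 fold change of -0.43 and 0.11 respectively. Here 12 members lay above the all-gene median of -0.10. The lowest were *Pttg1* (-1.90), *Ccnb2* (-1.47), a B-type cyclin, and *Cdc25c* (-1.45), all 3 with no overlap between groups and called under all 3 other scalings. *Pttg1* and *Cdc25c* were also called under both other probe set rules, whereas *Ccnb2* had 1 probe set, whose values those rules reuse. *Knl1* (0.71), *Aspm* (0.68), a spindle pole protein, and *Kif15* (0.53) were higher, the last called under 1 of 3 other scalings. The 19 members not called were *Cdk1*, *Foxm1*, *Mki67*, *Top2a*, *Incenp*, *Espl1*, *Bub3*, *Mad2l1*, *Cenpe*, *Cenpf*, *Nuf2*, *Aurka*, *Kif11*, *Kif18b*, *Kif2c*, *Kif23*, *Racgap1*, *Ect2* and *Anln*.

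In GTML against GNPs, 2 members were called higher and 14 lower (all genes 16.1% and 25.7%, or 41.8% in either direction), and 10 higher and 7 lower with arrays centred on their gene median (all genes 51.2% and 14.3%), with a median member log2 fold change of -0.30 and 0.13 respectively. Above the all-gene median lay 10 members. *Cdc25b* was lowest (-2.17, SE 0.21, adjusted p = 6.08e-08), before *Ccnb2* (-1.25) and *Kif18b* (-1.10), a kinesin that trims microtubule ends. *Espl1*, separase (0.40), and *Aurka*, the spindle pole kinase (0.33), were higher, each called under 2 of 3 other scalings. Without GTML replicate 2, 0 members were called higher and 25 lower (all genes 14.6% and 24.7%).

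CRISPR-Ptch1 tumours were then set against the other tumour models, which the study compared by clustering of the most variable genes and by SHH target genes. Against MERP, 1 member was called higher and 6 lower (all genes 8.20% and 5.15%, or 13.3% in either direction), and 1 higher and 17 lower with arrays centred on their gene median (all genes 5.19% and 17.4%), with a median member log2 fold change of -0.25 and -0.45 respectively. Of the 49, 7 lay above the all-gene median. *Knl1* was higher (1.02), and *Cdc25b* (-0.79), *Foxm1* (-0.66), *Plk1* (-0.62), *Racgap1* (-0.58), a central spindle GTPase-activating protein, *Espl1* (-0.49) and *Cdca8* (-0.45) were lower, with *Cdca8* alone of these overlapping between the groups. Without EP 1 or EP 2, 4 members were called (all genes 6.10% and 6.17%). With the EP tumours alone, 1 member was called higher and 11 lower (all genes 9.37% and 5.08%). With the TF tumour alone, 1 member was called higher and 0 lower (all genes 1.87% and 0.819%). TF is 1 array whose spread was assumed to equal that of the other groups, and a low count then says nothing of likeness to MERP.

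Against *Ptch1*+/-, 19 members were called higher and 4 lower (all genes 28.5% and 8.33%, or 36.8% in either direction), and 4 higher and 16 lower with arrays centred on their gene median (all genes 11.5% and 44.0%), with a median member log2 fold change of 0.28 and -0.19 respectively. Above the all-gene median of 0.12 lay 33 members. *Pttg1* (1.57), *Ccnb2* (1.12), *Kif20a* (1.06), the cytokinesis kinesin MKLP2, and *Ube2c* (0.97) were higher under every scaling tried. *Mki67* (-0.78), *Kif15* (-0.74), *Aspm* (-0.67) and *Foxm1* (-0.66) were lower. The EP tumours alone gave 12 higher and 3 lower (all genes 26.7% and 7.33%), and the TF tumour alone, on the same assumed spread of 1 array, 11 higher and 0 lower (all genes 18.0% and 4.41%).

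Against GTML, 12 members were called higher and 3 lower (all genes 22.7% and 14.1%, or 36.8% in either direction), and 2 higher and 12 lower with arrays centred on their gene median (all genes 12.7% and 44.9%), with a median member log2 fold change of 0.22 and -0.15 respectively. Above the all-gene median lay 31 members. *Cdc25b* (1.08), *Kif18b* (1.07) and *Ccnb2* (0.90) were highest, the last not called with arrays centred on their gene median. *Espl1* (-0.61), *Kif15* (-0.59) and *Cdca8* (-0.42) were lower. GTML replicate 2 was among the arrays that moved this count: without it, 17 members were called higher and 1 lower (all genes 21.3% and 12.8%).

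The other models also differed from each other. In MERP against *Ptch1*+/-, 34 members were called higher and 2 lower (all genes 25.9% and 6.08%, or 32.0% in either direction), and 15 higher and 4 lower with arrays centred on their gene median (all genes 11.5% and 17.0%), with a median member log2 fold change of 0.53 and 0.25 respectively. Above the all-gene median of 0.14 lay 41 members. The 3 highest were *Pttg1* (1.81), *Ccnb2* (1.23) and *Cdc25c* (1.21), and *Knl1* (-0.74) and *Kif15* (-0.51) were lower, both with overlap between the groups. The 13 not called were *Foxm1*, *Mki67*, *Top2a*, *Incenp*, *Espl1*, *Mad2l1*, *Cenpe*, *Cenpf*, *Nuf2*, *Kif11*, *Aspm*, *Kif23* and *Ect2*.

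In MERP against GTML, 27 members were called higher and 0 lower (all genes 23.4% and 15.8%, or 39.2% in either direction), and 15 higher and 1 lower with arrays centred on their gene median (all genes 16.1% and 23.4%), with a median member log2 fold change of 0.42 and 0.25 respectively. Above the all-gene median lay 39 members. *Cdc25b* (1.88), *Kif18b* (1.45) and *Racgap1* (1.12) were highest, and *Cdc20* (0.32), *Melk* (0.35) and *Cdk1* (0.35) were the lowest of those called, each called under 1 of 3 other scalings. At an unadjusted p under 0.05 31 members were higher and 1 lower (all genes 26.8% and 19.1%). Not called were 22 members, among them *Top2a*, *Bub1*, *Bub1b*, *Ube2c*, *Aurka* and *Kif20a*.

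In *Ptch1*+/- against GTML, 10 members were called higher and 12 lower (all genes 16.6% and 27.1%, or 43.6% in either direction), and 12 higher and 8 lower with arrays centred on their gene median (all genes 19.4% and 21.0%), with a median member log2 fold change of -0.19 and -0.08 respectively. Above the all-gene median of -0.09 lay 18 members. *Cdc25b* (1.35), *Mki67* (1.07) and *Mad2l1* (0.83), a checkpoint protein, were the 3 highest, and *Pttg1* (-1.35), *Bub1b* (-0.75) and *Hmmr* (-0.72), a spindle assembly factor, the 3 lowest.

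**Figure D4:**
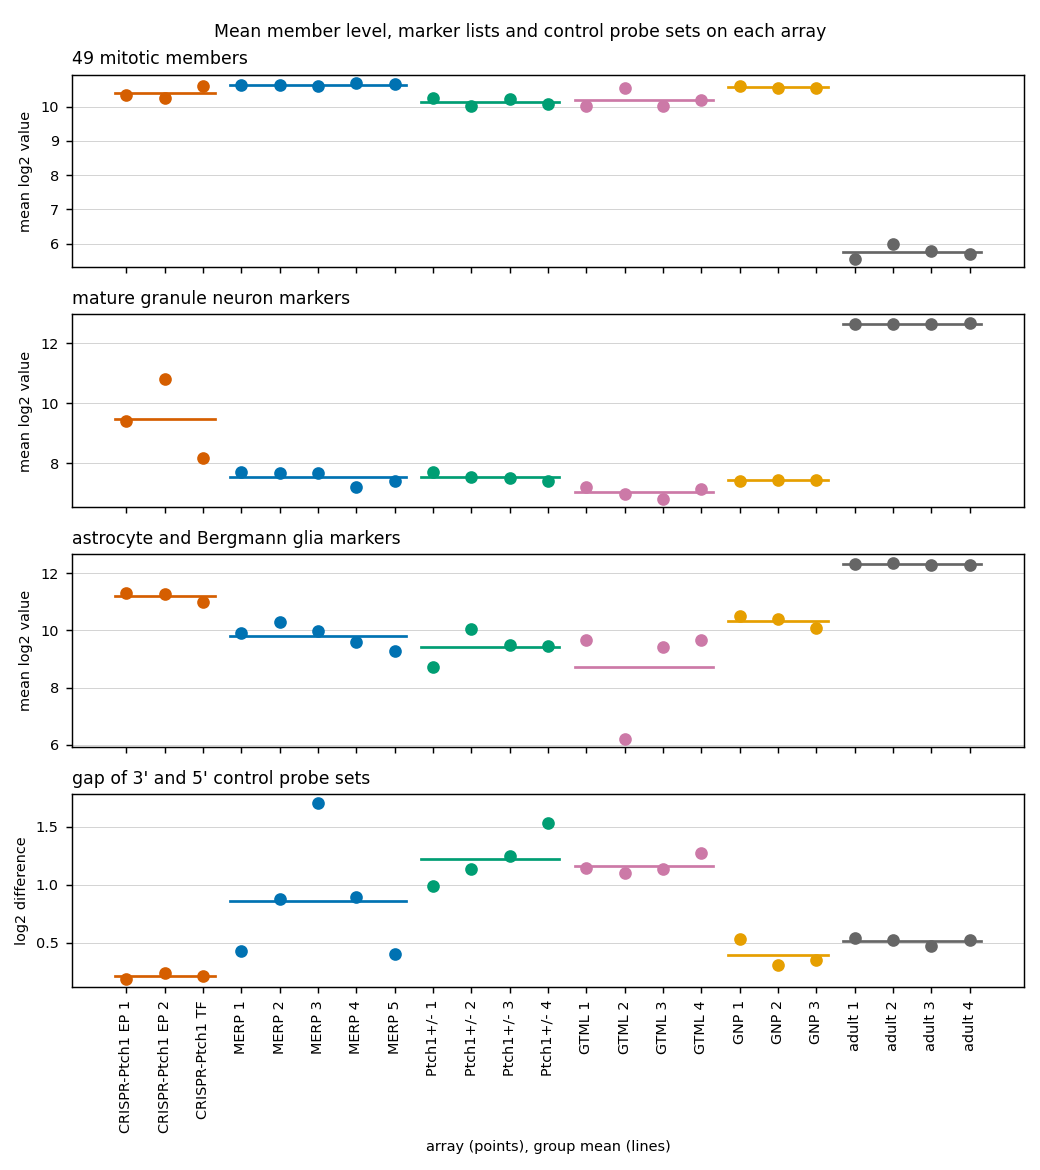
Mean log2 value of the 49 members on each array (top), of markers of mature granule neurons and of astrocytes, and the gap between 3' and 5' control probe sets, with lines at the group means. Member means lie from 10.01 to 10.68 in tumours and GNPs and from 5.56 to 5.98 in adult cerebellum, and the TF tumour (10.59) and GTML replicate 2 (10.54) are the highest arrays of their groups.

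In CRISPR-Ptch1 and in GTML, single arrays shifted most members together. The TF tumour was above both EP tumours for 45 of 49 members (91.8%), against 40.7% of all genes. TF also had lower markers of Purkinje cells (8.70 against 9.60 and 11.32), of oligodendrocytes (6.57 against 8.31 and 8.53) and of microglia (9.28 against 10.40 and 10.13) than EP 1 and EP 2, besides its lower markers of mature granule neurons, and the part of these in the member values was not tested. GTML replicate 2 was the highest of the 4 GTML arrays for 41 members (83.7%), against 30.6% of all genes. MERP replicate 3, with the widest 3' to 5' gap of its group, did not stand apart so: it was the lowest MERP array for 17 members (34.7%), near the 28.9% of all genes. The arrays were chosen with their values known, and these counts carry no test.

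Values of the members of each role follow, in log2 units of the deposited scale, with CRISPR-Ptch1 tumours in the order EP 1, EP 2 and TF and other arrays in the order of their replicate numbers. Values of different probe sets cannot be set against each other.

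Of mitotic entry, all 8 measured members were higher than adult cerebellum in all 5 comparisons, with role medians from 4.12 (*Ptch1*+/-) to 5.14 (MERP). *Cdk1*, the mitotic kinase, read 11.19, 11.20 and 11.31 in CRISPR-Ptch1, 11.38, 11.24, 11.03, 11.25 and 11.14 in MERP, 11.08, 10.72, 10.90 and 10.55 in *Ptch1*+/- and 10.63, 11.17, 10.82 and 10.80 in GTML tumours. *Cdk1* was 11.16, 11.16 and 11.10 in the GNPs and 4.53, 5.30, 5.08 and 4.87 in adult cerebellum. GTML and *Ptch1*+/- arrays lay at the low end and overlapped with MERP, and adult arrays lay far below all others. *Cdk1* was higher in CRISPR-Ptch1 than in *Ptch1*+/- tumours (0.42, adjusted p = 0.0378) on the deposited values, and -0.06 and not called with arrays centred on their gene median.

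*Foxm1*, the transcription factor that drives many of these genes, read 7.69, 7.54 and 7.84 in CRISPR-Ptch1, 8.14, 8.29, 8.30, 8.60 and 8.43 in MERP, 8.45, 8.15, 8.46 and 8.34 in *Ptch1*+/- and 7.67, 7.94, 7.52 and 7.94 in GTML tumours. For the references, *Foxm1* was 8.15, 7.98 and 8.06 in the GNPs and 6.85, 6.96, 6.94 and 7.06 in adult cerebellum. Every CRISPR-Ptch1 array was below every MERP and every *Ptch1*+/- array, and GTML overlapped with CRISPR-Ptch1. The *Foxm1* difference of CRISPR-Ptch1 from MERP was -0.66 (SE 0.12, adjusted p = 0.00128) and that of MERP from GTML 0.58 (SE 0.11, adjusted p = 0.00019), both called under all 3 other scalings.

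*Cdc25b*, a phosphatase that activates CDK1 at the start of mitosis, read 8.52, 8.43 and 9.12 in CRISPR-Ptch1, 9.30, 9.55, 9.70, 9.32 and 9.54 in MERP, 9.06, 8.61, 9.18 and 8.98 in *Ptch1*+/- and 7.46, 7.51, 7.10 and 8.35 in GTML tumours. *Cdc25b* was 9.65, 9.81 and 9.87 in the GNPs and 6.66, 6.70, 6.67 and 6.90 in adult cerebellum. GTML arrays were below all arrays of the other dividing groups, GNPs shared the top of the range with MERP, and the adult arrays lay below all GTML arrays. The difference between GTML and GNPs (-2.17, SE 0.21) corresponds to a 4.5-fold lower level. It was called in all 32 alternatives run for that comparison, as was *Cdc25b* in MERP and in *Ptch1*+/- against GTML, each over 32 alternatives. Most of the alternatives leave out 1 array, often of a group not compared. *Cdc25b* had 1 probe set, so the other probe set rules reuse its values.

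The Ki-67 gene *Mki67*, whose protein coats mitotic chromosomes and is the stain most used for proliferation, read 12.43, 12.57 and 12.56 in CRISPR-Ptch1, 12.57, 13.03, 13.24, 12.76 and 13.001 in MERP, 13.45, 13.20, 13.30 and 13.24 in *Ptch1*+/- and 12.27, 12.47, 12.19 and 11.99 in GTML tumours. *Mki67* was 13.35, 12.65 and 12.68 in the GNPs and 3.95, 5.75, 4.70 and 4.62 in adult cerebellum. All *Ptch1*+/- arrays were above all CRISPR-Ptch1 and all GTML arrays, GTML and CRISPR-Ptch1 overlapped at the low end, and 1 GNP array was as high as *Ptch1*+/-. *Mki67* was higher in *Ptch1*+/- than in GTML by 1.07 (SE 0.25, adjusted p = 0.00139), or 2.1-fold. *Ptch1*+/- tumours thus had the highest mean of *Mki67* among the 5 dividing groups and the lowest mean for 29 other members. The latter count was not made over all genes. *Top2a*, the topoisomerase that untangles sister chromatids, read 12.34, 12.33 and 12.54 in CRISPR-Ptch1, 12.41, 12.49, 12.35, 12.26 and 12.56 in MERP, 12.18, 12.20, 12.30 and 12.26 in *Ptch1*+/- and 12.38, 12.75, 12.54 and 12.30 in GTML tumours. *Top2a* was 12.74, 12.61 and 12.61 in the GNPs and 4.73, 6.12, 5.57 and 4.97 in adult cerebellum. For *Top2a* the GNP arrays lay above all CRISPR-Ptch1, MERP and *Ptch1*+/- arrays and within the GTML range, and no comparison among these 5 groups called it. Against adult cerebellum *Top2a* was 7.06 higher in CRISPR-Ptch1 tumours (SE 0.21, adjusted p = 7.84e-17).

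The chromosomal passenger complex, which corrects attachments of kinetochores to microtubules, had all 4 members higher than adult cerebellum in all 5 comparisons and 3 lower in *Ptch1*+/- than in MERP and in GNPs. *Birc5*, survivin, read 10.84, 10.87 and 11.04 in CRISPR-Ptch1, 11.21, 11.04, 10.91, 11.25 and 11.01 in MERP, 10.28, 10.01, 10.32 and 10.03 in *Ptch1*+/- and 10.40, 11.16, 10.44 and 10.73 in GTML tumours. *Birc5* was 11.08, 11.21 and 11.26 in the GNPs and 3.44, 4.82, 4.06 and 3.92 in adult cerebellum. All *Ptch1*+/- arrays lay below all other dividing arrays. MERP exceeded *Ptch1*+/- by 0.92 (SE 0.19, adjusted p = 0.000924). *Aurkb*, the kinase of the complex, read 10.07, 9.97 and 10.40 in CRISPR-Ptch1, 10.68, 10.27, 9.81, 10.33 and 10.49 in MERP, 9.44, 9.36, 9.11 and 9.31 in *Ptch1*+/- and 9.34, 10.16, 9.57 and 9.78 in GTML tumours. *Aurkb* was 10.31, 10.44 and 10.48 in the GNPs and 4.23, 4.57, 4.12 and 4.31 in adult cerebellum. *Ptch1*+/- and GTML arrays overlapped at the low end, and GTML replicate 2 reached the CRISPR-Ptch1 range. The *Aurkb* difference between *Ptch1*+/- and GNPs was -1.10 (SE 0.19, adjusted p = 7.81e-05). *Incenp*, the scaffold, had no call between any pair of *Ptch1* models or against GNPs.

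Sister chromatid cohesion and separation held *Cdca5* (sororin), *Sgo1* (shugoshin), *Espl1* (separase) and *Pttg1* (securin), and 3 of the 4 were higher than adult cerebellum in all 5 comparisons. *Pttg1* read 12.63, 12.78 and 11.56 in CRISPR-Ptch1, 12.86, 12.61, 12.58, 12.47 and 12.32 in MERP, 11.44, 10.19, 10.92 and 10.47 in *Ptch1*+/- and 11.99, 12.25, 12.21 and 11.96 in GTML tumours. *Pttg1* was 12.53, 12.54 and 12.89 in the GNPs and 12.44, 12.27, 12.32 and 12.32 in adult cerebellum. *Ptch1*+/- arrays were lowest and did not overlap with any other group, the TF tumour came next, and adult arrays lay above all GTML arrays and below both EP arrays. MERP exceeded *Ptch1*+/- by 1.81 (SE 0.22, adjusted p = 7.17e-06), or 3.52-fold. The other 2 probe sets of *Pttg1* also had their lowest tumour mean in *Ptch1*+/-, at 7.50 against 10.34 to 11.42 and at 6.78 against 6.86 to 8.33. *Cdca5* was 1.04 higher in MERP than in *Ptch1*+/- (adjusted p = 0.000191), and *Sgo1* 0.86 (adjusted p = 0.000992).

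**Figure D5:**
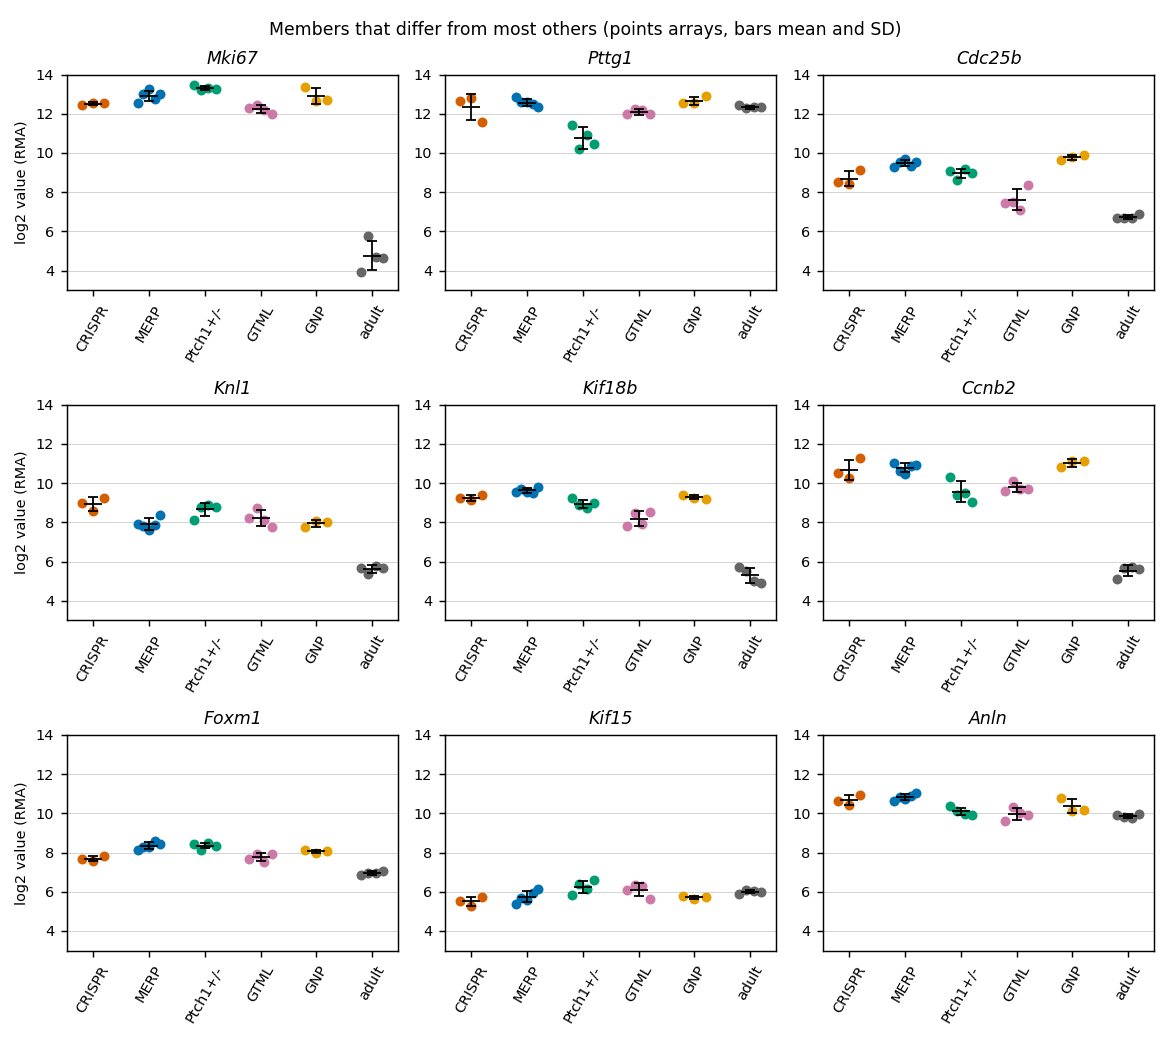
Log2 values of 9 members on each array (points), with the mean and SD of each group (bars). *Mki67* is highest in *Ptch1*+/- (13.20 to 13.45), *Pttg1* lowest there (10.19 to 11.44) with adult cerebellum high (12.27 to 12.44), *Cdc25b* and *Kif18b* lowest of the dividing groups in GTML, and *Kif15* and *Anln* show little gap to adult cerebellum.

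The spindle assembly checkpoint, which delays anaphase until kinetochores are attached, had all 5 members higher than adult cerebellum in all 5 comparisons. *Bub1b*, the checkpoint kinase-like protein BUBR1, read 10.28, 10.02 and 10.42 in CRISPR-Ptch1, 10.28, 10.26, 9.84, 10.40 and 10.42 in MERP, 9.73, 9.68, 9.51 and 9.49 in *Ptch1*+/- and 10.14, 10.84, 10.05 and 10.37 in GTML tumours. *Bub1b* was 10.22, 10.31 and 10.28 in the GNPs and 5.98, 6.65, 6.47 and 6.14 in adult cerebellum. All *Ptch1*+/- arrays were below all other dividing arrays. GTML exceeded *Ptch1*+/- by 0.75 (SE 0.17, adjusted p = 0.000949), although MERP against *Ptch1*+/- was not called for *Bub1b* under either other probe set rule. *Bub3*, which carries the checkpoint kinases to kinetochores, read 12.11, 12.11 and 12.37 in CRISPR-Ptch1, 12.44, 12.43, 12.48, 12.44 and 12.36 in MERP, 11.94, 12.003, 12.38 and 12.27 in *Ptch1*+/- and 12.13, 12.48, 12.16 and 12.29 in GTML tumours. *Bub3* was 12.23, 12.36 and 12.35 in the GNPs and 11.20, 11.27, 11.19 and 11.21 in adult cerebellum. Dividing groups overlapped for *Bub3*, and the adult arrays lay below all of them. The *Bub3* fold change against adult cerebellum was 0.98 in CRISPR-Ptch1 (SE 0.11, adjusted p = 2e-07), while its second brightest probe set differed by -0.15. *Mad2l1* was lower in GTML than in MERP by 1.12 (adjusted p = 4.35e-05).

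At the centromere and outer kinetochore, which bind chromosomes to spindle microtubules, all 8 members were higher than adult cerebellum in all 5 comparisons. *Cenpa*, the centromeric histone H3 variant, read 11.30, 11.15 and 11.65 in CRISPR-Ptch1, 11.91, 11.55, 11.35, 11.87 and 11.39 in MERP, 11.09, 10.82, 10.88 and 10.60 in *Ptch1*+/- and 10.92, 11.42, 10.74 and 10.78 in GTML tumours. *Cenpa* was 11.41, 11.64 and 11.69 in the GNPs and 5.54, 5.48, 5.67 and 5.24 in adult cerebellum. *Ptch1*+/- arrays were below all MERP, CRISPR-Ptch1 and GNP arrays, and GTML replicate 2 was the GTML array that reached those groups. MERP exceeded *Ptch1*+/- by 0.77 (adjusted p = 0.000712), while a dimmer *Cenpa* probe set read higher in *Ptch1*+/- (8.08 against 6.58). *Ndc80*, a microtubule-binding subunit, read 8.73, 8.62 and 8.78 in CRISPR-Ptch1, 8.86, 8.71, 8.77, 8.85 and 8.92 in MERP, 8.23, 7.91, 8.38 and 7.98 in *Ptch1*+/- and 8.35, 9.45, 8.35 and 8.98 in GTML tumours. *Ndc80* was 8.69, 8.71 and 8.87 in the GNPs and 4.79, 5.02, 5.17 and 4.62 in adult cerebellum. GTML spanned the widest range, and *Ptch1*+/- arrays lay at the low end. GTML exceeded *Ptch1*+/- by 0.66 (adjusted p = 0.00595). *Spc24*, *Spc25* and *Nuf2*, which form the same complex with NDC80, were lower in GTML than in MERP by 0.90, 0.85 and 1.04.

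*Knl1* differed between groups in another order. It read 8.99, 8.58 and 9.26 in CRISPR-Ptch1, 7.89, 7.84, 7.59, 7.88 and 8.39 in MERP, 8.14, 8.81, 8.90 and 8.78 in *Ptch1*+/- and 8.20, 8.74, 8.14 and 7.77 in GTML tumours. *Knl1* was 7.74, 8.04 and 8.04 in the GNPs and 5.66, 5.34, 5.77 and 5.69 in adult cerebellum. CRISPR-Ptch1 arrays were above all MERP and GNP arrays and overlapped with *Ptch1*+/- and GTML. *Knl1* was higher in CRISPR-Ptch1 than in MERP by 1.02 (SE 0.21, adjusted p = 0.00347), a call kept under all 3 other scalings and under neither other probe set rule. A second *Knl1* probe set averaged 8.06 in *Ptch1*+/-, 6.93 in GTML, 4.76 in CRISPR-Ptch1 and 4.46 in MERP, so both probe sets put *Ptch1*+/- above MERP and they differed on CRISPR-Ptch1.

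Of the APC/C, which marks securin and cyclin B for destruction, both the activator *Cdc20* and the E2 enzyme *Ube2c* were higher than adult cerebellum in all 5 comparisons. *Cdc20* read 12.18, 12.17 and 12.44 in CRISPR-Ptch1, 12.64, 12.65, 12.65, 12.78 and 12.48 in MERP, 12.002, 11.995, 12.30 and 12.18 in *Ptch1*+/- and 12.50, 12.73, 12.10 and 11.96 in GTML tumours. *Cdc20* was 12.60, 12.62 and 12.66 in the GNPs and 8.31, 8.32, 8.28 and 8.26 in adult cerebellum. MERP and GNP arrays lay above all *Ptch1*+/- arrays, and adult arrays were tightly grouped below. MERP exceeded *Ptch1*+/- by 0.52 (adjusted p = 0.00244). *Ube2c* read 12.67, 12.60 and 12.89 in CRISPR-Ptch1, 12.63, 12.48, 12.34, 12.59 and 12.42 in MERP, 11.70, 11.69, 12.05 and 11.58 in *Ptch1*+/- and 12.21, 12.64, 12.10 and 12.35 in GTML tumours. *Ube2c* was 12.62, 12.81 and 12.70 in the GNPs and 5.14, 5.84, 5.49 and 5.56 in adult cerebellum. All *Ptch1*+/- arrays were below all other dividing arrays, and CRISPR-Ptch1 and GNP arrays lay at the high end. CRISPR-Ptch1 exceeded *Ptch1*+/- by 0.97 (SE 0.15, adjusted p = 5.64e-05), called in all 34 alternatives run for it. *Ube2c* also had 1 probe set, so the other probe set rules reuse its values.

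Among 10 spindle motors and assembly factors, 9 were higher than adult cerebellum in each of the 5 comparisons, *Kif15* being the other. *Aurka* read 9.84, 9.62 and 10.08 in CRISPR-Ptch1, 10.13, 9.99, 9.98, 10.29 and 9.89 in MERP, 9.56, 9.47, 9.63 and 9.60 in *Ptch1*+/- and 10.02, 10.43, 9.90 and 10.11 in GTML tumours. *Aurka* was 9.92, 9.75 and 9.68 in the GNPs and 5.002, 4.95, 5.01 and 5.04 in adult cerebellum. *Ptch1*+/- arrays were below all MERP and GTML arrays, by 0.55 for the GTML mean (SE 0.12, adjusted p = 0.000517). *Kif11*, the motor that pushes spindle poles apart, read 10.14, 9.90 and 10.53 in CRISPR-Ptch1, 10.38, 10.13, 9.88, 10.26 and 10.47 in MERP, 10.23, 10.01, 10.29 and 10.24 in *Ptch1*+/- and 9.76, 9.80, 9.74 and 9.85 in GTML tumours. *Kif11* was 10.19, 10.24 and 10.21 in the GNPs and 3.74, 4.61, 3.97 and 4.24 in adult cerebellum. GTML arrays were below all MERP, *Ptch1*+/- and CRISPR-Ptch1 arrays. *Kif11* was higher in MERP than in GTML by 0.43 (adjusted p = 0.0268), called under 1 of 3 other scalings. *Kif18b* set GTML apart most among the motors, with MERP higher by 1.45 (SE 0.17, adjusted p = 5.19e-07) and no overlap.

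In the central spindle and cytokinesis group, 6 of 6 members were higher than adult cerebellum in CRISPR-Ptch1, MERP and GNPs and 5 of 6 in *Ptch1*+/- and GTML, the exception being *Anln*. *Prc1*, which bundles central spindle microtubules, read 10.49, 10.42 and 10.69 in CRISPR-Ptch1, 10.91, 10.89, 10.77, 10.95 and 10.97 in MERP, 10.25, 10.15, 10.43 and 10.39 in *Ptch1*+/- and 10.12, 10.79, 10.41 and 10.52 in GTML tumours. *Prc1* was 10.75, 10.64 and 10.59 in the GNPs and 5.68, 5.71, 5.71 and 5.28 in adult cerebellum. MERP arrays were above all *Ptch1*+/- arrays, with GTML replicate 2 inside the MERP range. MERP exceeded *Ptch1*+/- by 0.60 (adjusted p = 0.000609). *Racgap1* and *Kif23*, which together form centralspindlin, were lower in GTML than in MERP by 1.12 and 1.08, both with no overlap and called in all 32 alternatives. *Anln* read 10.65, 10.41 and 10.94 in CRISPR-Ptch1, 10.64, 10.83, 10.74, 10.86 and 11.03 in MERP, 10.36, 10.14, 9.98 and 9.93 in *Ptch1*+/- and 9.62, 10.33, 9.996 and 9.90 in GTML tumours. *Anln* was 10.80, 10.14 and 10.19 in the GNPs and 9.93, 9.83, 9.74 and 9.98 in adult cerebellum. MERP, CRISPR-Ptch1 and 1 GNP array lay at the high end, and *Ptch1*+/-, GTML and adult arrays overlapped. A second *Anln* probe set averaged 7.97 in adult cerebellum against 6.21 to 7.19 in the dividing groups, so the direction of the *Anln* difference from adult cerebellum depended on the probe set.

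Direction between *Ptch1*+/- and MERP also depended on the probe set. Of the 59 other probe sets of 31 members, 19 from 15 members read higher in *Ptch1*+/- than in MERP while the brightest one, used here, did not. For 10 of the 19, from 9 members, the mean was higher by over 0.5: *Kif23* (6.38 against 4.17), *Incenp* (8.79 against 7.15), *Cenpe* (9.99 against 8.43), *Cenpa* (8.08 against 6.58), *Spc25* (7.60 against 6.15), *Kif11* (7.88 against 6.76), *Top2a* (9.17 against 8.28), *Bub3* (7.83 against 6.95 and 6.34 against 5.48) and *Tpx2* (6.42 against 5.84). Which part of each transcript these probe sets read is not given in the sources used here. How many of all genes had such a probe set was not counted. Array medians over all probe sets were higher in *Ptch1*+/- (6.12 to 6.15) than in MERP (5.999 to 6.06). Over the brightest probe set of each gene they were 6.94 to 7.22 and 7.22 to 7.39. The counts are therefore not shown to be particular to the members.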

How the data were processed

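RNA of 23 samples was measured on Affymetrix whole-genome expression arrays for mouse. The deposited values are log2 expression values that the authors made by RMA, which corrects background, quantile-normalises arrays and summarises the probes of a probe set, in Expression Console version 1.3.1, for 45101 probe sets. Which arrays were normalised together is not given in the sources used here, and the number of arrays limits the precision. Of these probe sets, 34958 carried 1 gene symbol, 932 several and 9211 none in the platform annotation, and 34754 were matched to a current symbol by Entrez ID. Each of 18194 genes was read from its brightest single-symbol probe set over the 23 arrays, and 31 members had several.

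Groups came from the sample labels. A linear model with 6 groups was fitted to all genes with limma 3.58.1 (R 4.3.3), with empirical Bayes moderation, and p-values of each of the 15 comparisons were adjusted by Benjamini-Hochberg over all genes, with calls at an adjusted p under 0.05. The fit was tested on simulated data. Members, lists and the rule for named genes were chosen with earlier results of these data known. That rule took 17 members fixed by name, and in each comparison the 3 highest and 3 lowest called and any whose call differed from most, and from the other lists the highest and lowest called. Fits of the compared groups alone, other scalings, other probe set rules, a low-value filter (above 6.0925 in 3 arrays, passed by 12860 genes), a replicate block and leaving out each array were run. Motifs were counted in RefSeq promoters with Python 3.11.15.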

Additional observations from a re-analysis of the deposited data

Results flagged for a closer look

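Member values, and the mean over the members, were checked within each group of 4 or 5 arrays for 1 array set apart from the rest (Dixon's test), and 10 of 200 groups had one, where chance flags about 1 in 20. In MERP, replicate 3, the array with the widest 3' to 5' gap, was low for *Cdc25c* (8.0987) and *Bub1b* (9.8409). Among *Ptch1*+/- tumours, replicate 1 was high for *Bub1* (11.0697) and low for *Knl1* (8.1389), replicate 3 was high for *Cdca5* (10.4951) and replicate 4 was low for *Mad2l1* (11.1809). GTML replicate 3 was low for *Melk* (9.7092). In adult cerebellum, replicate 1 was low for *Ccnb2* (5.1309), and replicate 4 was high for *Cdc25b* (6.9027) and low for *Prc1* (5.2823). All are log2 values, and what sets these arrays apart was not tested.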

How the results depend on the processing

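Counts against adult cerebellum stayed between 46 and 48 members with each array left out: 47 to 48 in CRISPR-Ptch1, 47 in MERP and *Ptch1*+/-, 46 in GTML and 46 to 47 in GNPs. Counts among the dividing groups depended on single arrays. Here and below the counts are of members alone, and shares of all genes stand beside some of them in the comparisons above. A shifted count therefore does not show that members moved more than other genes. CRISPR-Ptch1 against MERP ranged from 4 (without EP 1 or EP 2) to 12 (without TF), against *Ptch1*+/- from 15 (without TF) to 23, against GTML from 10 to 18 and against GNPs from 2 (without EP 1, EP 2 or GNP replicate 3) to 6. MERP ranged from 28 to 36 against *Ptch1*+/-, from 19 to 31 against GTML and from 0 (without GNP replicate 2 or 3) to 2 (without GTML replicate 1 or 2 or GNP replicate 1) against GNPs, *Ptch1*+/- from 16 to 24 against GTML and from 21 to 30 against GNPs, and GTML from 13 to 25 (without GTML replicate 2) against GNPs.

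With arrays centred on their gene median the members called were 18 in CRISPR-Ptch1 against MERP, 19 in MERP against *Ptch1*+/-, 16 in MERP against GTML, 15 in MERP against GNPs and 18 in *Ptch1*+/- against GNPs. Centring on all probe sets gave 25 in GTML against GNPs, and quantile normalisation 2 in MERP against GNPs. The mean over probe sets gave 2 in CRISPR-Ptch1 and 3 in MERP against GNPs, and the probe set of highest SD gave 2 in CRISPR-Ptch1 against GNPs. EP tumours alone gave 12 against MERP and 15 against *Ptch1*+/-, and TF alone gave 1 against MERP, 11 against *Ptch1*+/- and 2 against GNPs, with the spread of this 1 array assumed to equal that of the other groups. A fit of the compared groups only gave 7 in CRISPR-Ptch1 against GTML. Asking for a 2-fold difference as well left 1, 3, 2 and 1 in CRISPR-Ptch1 against MERP, *Ptch1*+/-, GTML and GNPs, 6, 7 and 0 in MERP against *Ptch1*+/-, GTML and GNPs, 3 and 6 in *Ptch1*+/- against GTML and GNPs, and 4 in GTML against GNPs.

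Replicate numbers did not pair the arrays: same-numbered arrays had a median correlation of deviations of -0.0043 (46 pairs), other pairs -0.0013, and 2 of 22 arrays correlated best with their own number. The replicate number was also fitted as a block, in which TF and MERP replicate 5 each had a level of their own. CRISPR-Ptch1 then rested on EP 1 and EP 2 alone. Calls went from 23 to 10 in CRISPR-Ptch1 against *Ptch1*+/- and from 15 to 9 against GTML, and moved by less than 1.5 times elsewhere. Leaving out TF without a block already gave 15 against *Ptch1*+/-. What part the replicate numbers had in these drops was not tested.

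The sign of single log2 fold changes also moved. Centring on gene medians turned CRISPR-Ptch1 against *Ptch1*+/- for *Cdk1* (-0.0560) and *Spc25* (-0.0369), *Ptch1*+/- against GNPs for *Bub3* (0.3767), *Kif11* (0.5197) and *Racgap1* (0.4010), and GTML against GNPs for *Ube2c* (0.0464). The mean over probe sets turned CRISPR-Ptch1 against *Ptch1*+/- for *Cenpa* (-0.1019) and *Spc25* (-0.6423), CRISPR-Ptch1 against GTML for *Spc25* (-0.0375), *Knl1* (-0.7202) and *Nusap1* (-0.1731), MERP against *Ptch1*+/- for *Bub3* (-0.2471), *Ptch1*+/- against GNPs for *Bub3* (0.4964), MERP against GTML for *Aspm* (-0.6611), and GTML against GNPs for *Ttk* (0.3377) and *Cenpa* (0.1883). It turned *Anln* against adult cerebellum in CRISPR-Ptch1 (-0.0873), MERP (-0.0656), *Ptch1*+/- (-0.7644) and GNPs (-0.2556). The probe set of highest SD turned *Anln* in CRISPR-Ptch1 against GTML (-0.1856) and against adult cerebellum in CRISPR-Ptch1 (-0.9721), MERP (-1.0833), *Ptch1*+/- (-1.7622), GTML (-0.7865) and GNPs (-1.0192), *Knl1* in CRISPR-Ptch1 against GTML (-2.1719), *Bub3* in MERP against *Ptch1*+/- (-0.8838) and in *Ptch1*+/- against GNPs (1.1423), and *Cenpe* in MERP against *Ptch1*+/- (-1.5562), MERP against GTML (-1.1129) and *Ptch1*+/- against GNPs (1.1732). Over the alternatives other than leaving out 1 array, 1751 values of the named fold changes kept their side of the threshold. Another 285 lost the call, 44 gained it and these 32 reversed, each with a call in at least 1 setting. Sign changes with no call in either setting are counted among the 1751. The cause was not tested. Dim members in adult cerebellum limit how exactly their fold changes are known.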
